A study of Mus musculus with 13 samples.

Results

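Liver makes hormones that report its fuel state to other organs, and 9 genes of this system were followed here in the livers of mice fed fat: Fgf21, Klb, which encodes a co-receptor of FGF21 and no hormone, and the genes of other secreted liver proteins, Angptl4, Angptl6, Ahsg, Fetub, Lect2, Inhbe and Enho. A member was taken from the array where a probe set named that gene alone, and the brightest on average was kept where a gene had several. This gave 8 of the 9 members, each with 1 probe set, among 22180 genes with such a probe set. Angptl6, which encodes an angiopoietin-like growth factor, shares its probe set with another gene and is not analysed here. All 8 lay above the limit below which dim genes were left out, so they are 8 of 13308 tested genes.

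The mice were male C57Bl/6J, 6 weeks old when they were put on a diet with 60% fat, which every group ate for 4 weeks. Over the next 4 weeks, the mice of 4 arrays stayed on that diet (HFD), those of 4 arrays received the diet with canagliflozin at 25 to 30 mg/kg (CANA), and those of 5 arrays were held to the weight of the treated mice by 15 to 30% fewer calories (CR). No group without the fat-rich diet was examined, so every contrast is between groups raised on it. Canagliflozin blocks the glucose transporter SGLT2 of the kidney tubule, and CR was the study's control for lower body weight. Each array measured total RNA of liver, and values are log2 intensities, so a difference of 1 is a doubling. The labels do not say whether each array is a separate animal, so p-values reflect the spread of these arrays, which may be technical.

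FGF21 is secreted by hepatocytes in fasting, when fatty acids activate the receptor PPAR-alpha, and also after sugar intake through the factor ChREBP and under amino acid shortage through ATF4. It acts on fat and brain through FGF receptors bound to beta-klotho, the product of Klb. The other secreted members act on lipoprotein lipase (Angptl4), on insulin signalling (Ahsg, Lect2), on fat tissue (Inhbe), on egg fertilisation (Fetub) and on energy balance (Enho).

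The stretch before the start of Fgf21 and Inhbe is shown because both hold the same 8-letter match to the element that ATF4 binds together with a C/EBP protein, written TGATGCAA on one strand and TTGCATCA on the other. Sequences are RefSeq's, build GRCm38.p6, the 250 bases before the gene's start, 5′ to 3′ on the gene's strand. Capitals mark the matches to the motifs searched.
Fgf21, chr7:45615491-45615740, minus strand: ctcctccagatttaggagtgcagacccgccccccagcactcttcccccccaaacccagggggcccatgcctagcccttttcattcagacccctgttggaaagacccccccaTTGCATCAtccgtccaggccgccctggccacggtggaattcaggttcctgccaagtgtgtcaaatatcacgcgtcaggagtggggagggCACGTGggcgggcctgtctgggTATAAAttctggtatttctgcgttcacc
Inhbe, chr10:127351849-127352098, minus strand: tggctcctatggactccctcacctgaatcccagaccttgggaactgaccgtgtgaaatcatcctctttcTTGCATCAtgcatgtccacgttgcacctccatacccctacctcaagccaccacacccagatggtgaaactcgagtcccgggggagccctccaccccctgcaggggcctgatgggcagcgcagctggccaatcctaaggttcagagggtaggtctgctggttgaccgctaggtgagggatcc
In Fgf21 the TTGCATCA match runs from 139 to 132 bases before the start, followed by an E-box, CACGTG, from 50 to 45 and a TATA box, TATAAA, from 28 to 23. In Inhbe the TTGCATCA match runs from 181 to 174 bases before the start. The ATF4 element TGATGCAA, the E-box CACGTG, the TATA box TATAAA and a direct repeat bound by PPAR with RXR, in which a single base of any kind parts 2 copies of AGGTCA, were searched on both strands, and no matches overlapped. Of 32851 windows of this length, TGATGCAA was in 0.791%, the direct repeat in 0.0335%, CACGTG in 6.02% and TATAAA in 12.4%. Windows were at hand for 7 members, Angptl6 included and Angptl4 and Enho not, and TGATGCAA was in those of Fgf21 and Inhbe alone. Fetub was the other member with TATAAA, and no window of a member held the direct repeat. A match describes letters only and does not show that a protein binds there.

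The 13 arrays were close to each other, with pairwise correlations of 0.971 to 0.985 across all probe sets. They also carried serial numbers. A first principal component with 18.9% of the variance lay at -7.55 ± 8.30 for the 7 arrays of serial numbers 1 to 8, and at 8.81 ± 5.54 for the 6 of serial numbers 9 to 14 (SD). These 2 sets were formed with the values known, and every group had arrays in both. The tissue carried its hepatocyte markers, such as Alb and Apoa1: the mean of 10 of them lay between 12.55 and 12.69 in every array, with overlapping ranges in the 3 groups. Of the exocrine pancreas, a further source of Fgf21, 5 of 8 markers were measured, 3 of them below the limit of the tested range, and their mean stayed between 3.78 and 4.13. Kupffer cell markers averaged 6.32 to 7.23 in HFD, 6.67 to 7.15 in CANA and 6.16 to 6.99 in CR over 8 of 8 markers, with none of the 8 passing the test in any comparison. In bulk liver, fewer cells of a type and less RNA per cell cannot be told apart.

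The level of Fgf21, whose gene lies at chr7:45613890-45615490, was highest in the treated mice. In HFD the arrays read 5.77, 5.29, 6.02 and 5.52, and in CANA 6.23, 6.99, 7.36 and 6.90. In CR they read 6.05, 5.87, 5.27, 5.56 and 6.51. Every CANA array lay above every HFD array, whereas the lowest CANA array, replicate 1, lay below CR replicate 5. The means were 5.65 ± 0.31 in HFD, 5.85 ± 0.47 in CR and 6.87 ± 0.47 in CANA (SD, n = 4, 5 and 4).

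Canagliflozin against continued diet gave a 2.33-fold higher mean of Fgf21, a log2 difference of 1.22 (SE 0.25, 95% interval 0.68 to 1.76), which missed the threshold over all genes (limma adjusted p = 0.0653, rank 42 of 13308). The exact two-sided permutation test over these 8 arrays gave p = 0.0286, the smallest it can give for 4 against 4. Within serial numbers 1 to 8 the difference was 1.08 and within 9 to 14 it was 1.36. With the serial number in the fit Fgf21 passed (1.25, limma adjusted p = 0.0455). With the set of serial numbers, which was formed with the values known, it passed too (1.22, limma adjusted p = 0.0395). It also passed when CANA replicate 1 (1.43, limma adjusted p = 0.0213), CR replicate 3 (limma adjusted p = 0.0499) or CR replicate 5 (limma adjusted p = 0.0413) was left out. Leaving out either of these CR arrays kept the difference at 1.22 and lowered its SE (to 0.23 and 0.22). Fgf21 did not pass without any single HFD array (limma adjusted p of 0.109 to 0.182) or with HFD and CANA fitted alone (limma adjusted p = 0.0775). It was farthest from passing without CANA replicate 3 (1.05, limma adjusted p = 0.254). Fgf21 passed in 6 of 27 alternative settings, the looser limit of 0.10 included.

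Weight matching without the drug left Fgf21 near its level on the continued diet. CR and HFD differed by 0.20 (SE 0.24, 95% interval -0.31 to 0.71, limma adjusted p = 0.999), and 0.20 and 0.27 within the 2 sets of serial numbers. Without CR replicate 5 the difference was 0.0369, without HFD replicate 2 it was 0.0820 and without CR replicate 3 it was 0.35. The interval still holds a rise of up to 0.71, so equal levels are not shown. CANA exceeded CR by 1.02 (2.02-fold, SE 0.24, 95% interval 0.51 to 1.53), again short of the threshold over all genes (limma adjusted p = 0.165, exact two-sided permutation p = 0.0317). In the order HFD, CR, CANA, the first pair of neighbours did not differ beyond the spread of their arrays. The second pair differed by more than 1 SD of either group, with CR replicate 5 inside the CANA range.

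**Figure D1:**
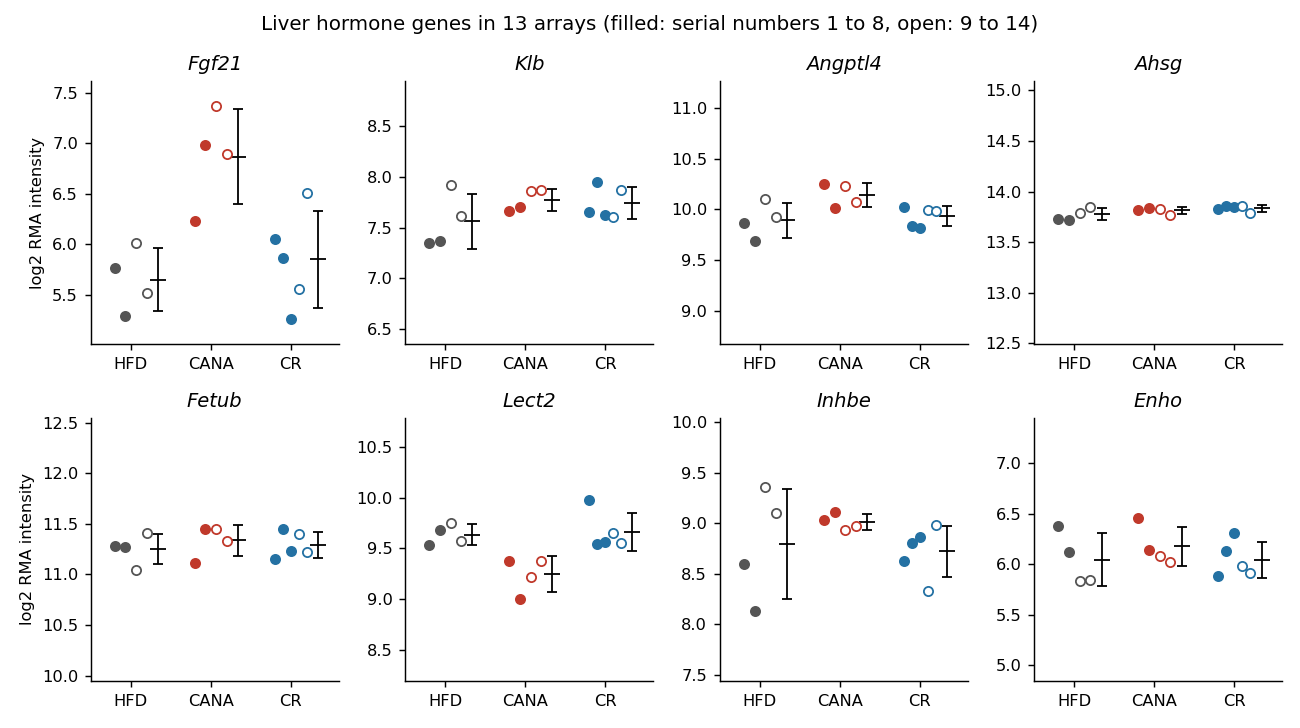
Log2 intensity of the 8 members (vertical axis, all panels spanning the same width in log2 units) in HFD, CANA and CR; points are arrays, filled for serial numbers 1 to 8 and open for 9 to 14, and the bars are mean ± SD. Fgf21 sits at 6.23 to 7.36 in CANA against 5.29 to 6.02 in HFD, and Lect2 at 9.00 to 9.38 in CANA against 9.54 to 9.75 in HFD.

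Lect2, the gene of a liver-derived chemotactic protein that in mice impairs insulin signalling in muscle, was lower in the treated mice. The HFD arrays read 9.54, 9.69, 9.75 and 9.57 and the CANA arrays 9.38, 9.00, 9.22 and 9.38. The CR arrays read 9.98, 9.54, 9.57, 9.65 and 9.55. All 4 CANA arrays lay below all 9 others. CANA was at 9.24 ± 0.18, HFD at 9.64 ± 0.10 and CR at 9.66 ± 0.19 (SD, n = 4, 4 and 5).

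Against HFD the Lect2 difference was -0.39 (SE 0.12, 95% interval -0.64 to -0.15), which did not pass over all genes (limma adjusted p = 0.252, exact two-sided permutation p = 0.0286, the smallest possible here). Against CR it was -0.41 (SE 0.11, 95% interval -0.65 to -0.18, limma adjusted p = 0.241), with an exact two-sided permutation p of 0.00794, the smallest that 4 against 5 arrays can give. CR replicate 1 stood above the other CR arrays, and without it the CANA minus CR difference was -0.33 (limma adjusted p = 0.403). CR and HFD differed by 0.02 (95% interval -0.21 to 0.26), a value whose sign turned without HFD replicate 1 (-0.01) and without CR replicate 1 (-0.06). Within serial numbers 1 to 8 and 9 to 14, CANA minus HFD was -0.42 and -0.36, and CANA minus CR was -0.51 and -0.30.

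Angptl4, an inhibitor of lipoprotein lipase that PPAR-alpha and PPAR-gamma induce, had its highest mean in CANA. Its arrays read 9.86, 9.68, 10.10 and 9.92 in HFD, 10.25, 10.01, 10.24 and 10.08 in CANA, and 10.03, 9.84, 9.82, 10.00 and 9.98 in CR. The groups overlapped, since HFD replicate 3 and CR replicate 1 reached into the CANA range. CANA exceeded HFD by 0.25 (95% interval 0.04 to 0.47, limma adjusted p = 0.473) and CR by 0.21 (95% interval 0.0046 to 0.42, limma adjusted p = 0.582). The exact two-sided permutation p was 0.0857 against HFD and 0.0159 against CR. The CANA minus HFD value was 0.36 within serial numbers 1 to 8 and 0.15 within 9 to 14.

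Inhbe encodes the subunit of activin E, a liver protein that restrains fat breakdown in adipose tissue of mice. Its HFD arrays were spread widely, at 8.59, 8.13, 9.35 and 9.10, while its CANA arrays lay together at 9.03, 9.11, 8.93 and 8.97. In CR it read 8.63, 8.80, 8.86, 8.33 and 8.98. The CANA values thus lay inside the HFD range, and the SD was 0.55 in HFD, 0.25 in CR and 0.08 in CANA. The low pair in HFD were the arrays of serial numbers 1 to 8, which averaged 8.36 against 9.23 for the other pair. CANA minus HFD was 0.22 (SE 0.21, limma adjusted p = 0.840), but 0.71 within serial numbers 1 to 8 and -0.28 within 9 to 14. It was -0.0069 without HFD replicate 2. CR minus HFD was -0.07 (95% interval -0.49 to 0.34), with 0.40 and -0.57 within the sets, so no direction of Inhbe against HFD held across both sets. CANA minus CR was 0.29 (95% interval -0.12 to 0.70, limma adjusted p = 0.728), with 0.31 and 0.30 within the sets.

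Klb, the co-receptor gene, ranged from 7.35 to 7.92 in HFD, 7.66 to 7.87 in CANA and 7.61 to 7.95 in CR. Its difference was 0.21 in CANA against HFD (95% interval -0.06 to 0.48, limma adjusted p = 0.689) and 0.18 in CR against HFD (95% interval -0.07 to 0.44). As with Inhbe, the lower HFD pair, averaging 7.36, had serial numbers 1 to 8, and the other pair averaged 7.77. CANA and CR differed by 0.03 (95% interval -0.22 to 0.29), and the sign turned without CANA replicate 4 or CR replicate 4.

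Ahsg and Fetub, the genes of fetuin-A and fetuin-B, lie on chromosome 16 at chr16:22892015-22899451 and chr16:22918382-22939768. Fetuin-A inhibits the insulin receptor and tissue calcification, and fetuin-B keeps the egg coat open to sperm. Ahsg ranged from 13.72 to 13.86 over all 13 arrays, close to the mean of Alb, the gene of albumin, which was 14.02 in HFD. Whether the probe set is saturated at this level was not tested, so its narrow range does not show a steady amount of RNA. Its differences were 0.04 in CANA against HFD, 0.06 in CR against HFD and -0.02 in CANA against CR, and no 95% interval reached beyond -0.17 or 0.21. Fetub ranged from 11.05 to 11.45, with differences of 0.08, 0.04 and 0.04 in the same order. Its intervals lay between -0.18 and 0.31.

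Enho, the gene of adropin, a peptide tied to energy balance, ranged from 5.83 to 6.46 and overlapped in all 3 groups. It differed by 0.13 in CANA against HFD (95% interval -0.16 to 0.43) and by 0.13 in CANA against CR (95% interval -0.15 to 0.41). Its CR minus HFD value lay within 0.002 of zero, and its sign turned in 10 of 27 alternative settings. In each group its mean was lower in serial numbers 9 to 14 than in 1 to 8, by 0.41 in HFD, 0.25 in CANA and 0.16 in CR.

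Counted together, none of the 8 members passed in any of the 3 comparisons, where 0.165% of tested genes passed in CANA against HFD, 0% in CR against HFD and 0.150% in CANA against CR. At an unadjusted limma p under 0.05, 3 of 8 lay below it in CANA against HFD (Fgf21, Angptl4 and Lect2), against 8.82% of tested genes. The same 3 did in CANA against CR, against 8.43%, and none did in CR against HFD, against 3.74%. The first and the third comparison share the CANA arrays. The members were chosen with earlier results of these data known, so their counts beside all tested genes only describe them. The arrays did not overlap for 2 of 8 members in CANA against HFD (4.90% of tested genes), for 1 in CANA against CR (2.93%) and for none in CR against HFD (1.17%). By direction, these were Fgf21, higher in CANA than in HFD (2.13% of tested genes), and Lect2, lower in CANA than in HFD (2.77%) and than in CR (1.51%). No member lay wholly higher in CANA than in CR (1.42%), or wholly higher or lower in CR than in HFD (0.451% and 0.721%). A limit of 0.10 on the adjusted p took in 1 member, Fgf21, in CANA against HFD (0.421% of tested genes) and none in CANA against CR (0.255%) or CR against HFD (0%). Differences were above zero for 7 of 8 members in CANA against HFD (46.1% of tested genes), 6 in CR against HFD (46.4%) and 6 in CANA against CR (48.8%). The median difference of the members was 0.17, 0.04 and 0.09 in CANA against HFD, CR against HFD and CANA against CR, beside -0.01, -0.01 and -0.0037 for all tested genes.

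**Figure D2:**
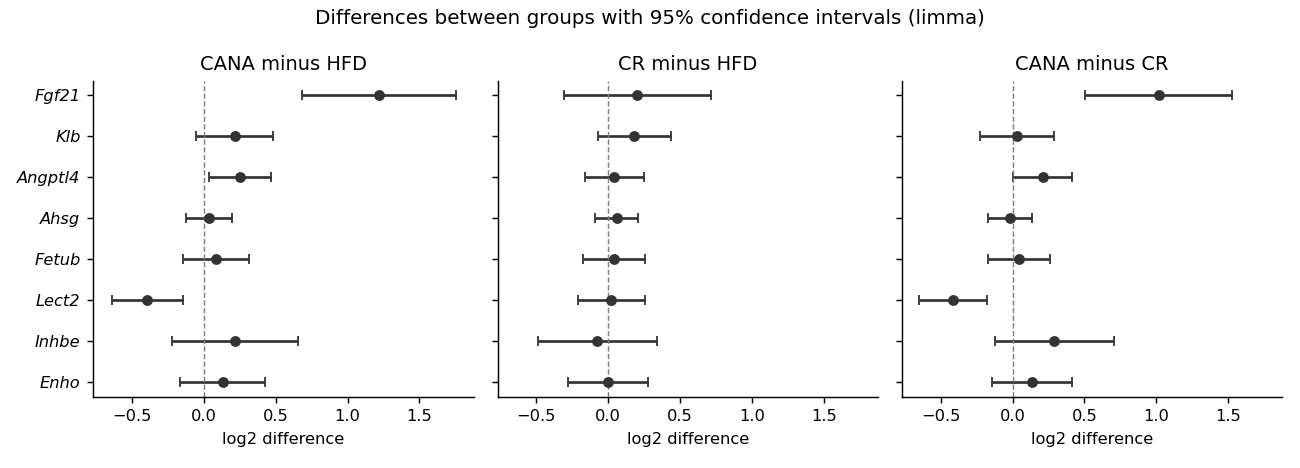
Log2 differences of the 8 members (horizontal axis) with 95% confidence intervals from limma, for CANA minus HFD, CR minus HFD and CANA minus CR. The interval lies above zero for Fgf21 and Angptl4 and below zero for Lect2 in both comparisons with CANA, and every interval of CR minus HFD spans zero; none of the differences passed after adjustment over all genes.

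Inside the groups, Fgf21 did not track any other member past the threshold. With group means removed, its Pearson r over 13 arrays was 0.56 with Klb (permutation p = 0.0399, adjusted p = 0.164 over 7 relations, Spearman rho 0.52, permutation p = 0.0785, adjusted p = 0.333). It was -0.59 with Enho (permutation p = 0.0469, adjusted p = 0.164, rho -0.50, permutation p = 0.0951, adjusted p = 0.333). Without CANA replicate 1 and CR replicate 5, the arrays farthest from the median of Fgf21, these were 0.51 and -0.37 (permutation p = 0.181 and 0.338). Within serial numbers 1 to 8 they were 0.28 and -0.62 and within 9 to 14 they were 0.84 and -0.40, where the latter set allows no permutation p below 0.25. With Angptl4 r was 0.36 (permutation p = 0.231, adjusted p = 0.405, rho 0.34, permutation p = 0.302, adjusted p = 0.704), and 0.74 without those arrays (permutation p = 0.0240, adjusted p = 0.168). With Inhbe it was 0.35 (permutation p = 0.192, adjusted p = 0.405, rho 0.20, permutation p = 0.523, adjusted p = 0.820). With Lect2, Ahsg and Fetub r was -0.08, -0.15 and 0.07 (permutation p of 0.832, 0.607 and 0.828, adjusted p of 0.832 for each), and rho was -0.13, -0.10 and -0.08 (permutation p of 0.706, 0.764 and 0.820, adjusted p of 0.820 for each).

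**Figure D3:**
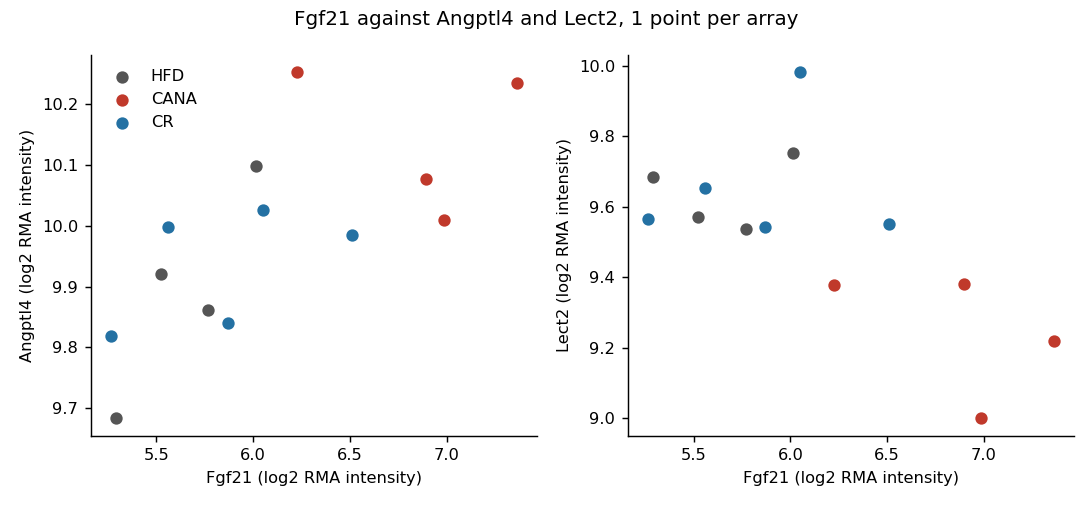
Log2 intensity of Fgf21 (horizontal axis) against Angptl4 (left) and Lect2 (right), with each point an array coloured by group. The CANA arrays lie at 6.23 to 7.36 for Fgf21, to the right of all others except CR replicate 5 at 6.51, which lies to the right of CANA replicate 1, and their Lect2 values are at or below 9.38.

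Over all 13 arrays, group differences included, the named genes whose profile was most like that of Fgf21 were Lpin2, Ei24, Rab30, Itgb3 and Leng9, with Pearson r of 0.92, 0.91, 0.90, 0.90 and 0.90. Lpin2 encodes a phosphatidate phosphatase of triglyceride synthesis, and Rab30 a small GTPase of the Golgi. With group means removed their r was 0.77, 0.74, 0.73, 0.74 and 0.85. None of the 5 passed in CANA against HFD: Rab30 was at 1.01 (limma adjusted p = 0.0657), Lpin2 at 0.53 (limma adjusted p = 0.126) and Itgb3, an integrin gene, at 0.61 (limma adjusted p = 0.131). The profiles share arrays and were picked from 13308 genes, so the r values only describe them. The choice took in the group differences, so the CANA minus HFD values of these genes are no separate test. Nearest to Angptl4 were Wbp1l, Mef2d, C2cd2l, Fndc1 and Tmem189 (r of 0.84 to 0.86), and nearest to Inhbe were Tgs1, Syt1, Ap2m1, Arsa and Furin (0.80 to 0.82).

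Genes that receive or regulate the FGF21 signal were compared from a fixed list. Of 8 genes listed around the receptors and inactivation of FGF21, 5 were tested and none passed in any comparison, beside at most 0.165% of all tested genes. The 5 were Fgfr1, Fgfr2, Fgfr3, Fgfr4 and Egr1, which is not a receptor gene, so no inactivation gene was tested. Fgfr3, an FGF receptor gene, read 5.35 ± 0.23 in CANA, 6.11 ± 0.13 in HFD and 5.86 ± 0.37 in CR (SD, n = 4, 4 and 5). The CANA minus HFD difference of -0.75 did not pass (SE 0.17, limma adjusted p = 0.108), although the arrays of these groups did not overlap. Of all tested genes 2.77% lay wholly lower in CANA than in HFD. Fgfr3 passed in 2 of 27 alternative settings. These were without CR replicate 3 (limma adjusted p = 0.0139) and with HFD and CANA fitted alone (limma adjusted p = 0.0488). On leaving out 1 array its limma adjusted p reached 0.280. Fgfr1, the receptor through which FGF21 acts on fat, was at 0.15 (limma adjusted p = 0.893), Fgfr2 at -0.03 and Fgfr4, the main FGF receptor of hepatocytes, at -0.10. Fap, the protease that inactivates human FGF21, and Kl, the klotho gene, had means of 3.28 and 3.20, under the limit of the tested range of 3.95.

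Among 16 transcription factors and cofactors known to act on Fgf21, Sirt1 and Ppargc1a being cofactors, none passed in any comparison. Of all tested genes at most 0.165% did. In CANA against HFD 7 of 16 were above zero, beside 46.1% of all tested genes. Ppara was at -0.05 (95% interval -0.36 to 0.25), Creb3l3, a fasting factor of the ER membrane, at 0.07 (95% interval -0.21 to 0.36) and Atf4 at 0.18 (95% interval -0.04 to 0.40). Mlxipl, the gene of ChREBP, was at -0.39 (95% interval -0.72 to -0.05, limma adjusted p = 0.480). In CR against HFD these 4 were at -0.06, -0.06, 0.04 and -0.09. In CANA against HFD 1 of the 16 lay wholly higher and 2 wholly lower, beside 2.13% and 2.77% of all tested genes. The lower were Xbp1 at -0.47 (limma adjusted p = 0.274) and Nr3c1 at -0.26 (limma adjusted p = 0.361). Against CR, Thrb lay wholly lower in CANA (-0.31, limma adjusted p = 0.393), as did 1.51% of all tested genes. These genes were named after their values were seen. The higher gene was Ppargc1a, a coactivator of PPAR-alpha likewise named after its values were seen, at 1.37 (limma adjusted p = 0.0514). It passed in 9 of 27 alternative settings, the looser limit of 0.10 included. Its p was lowest with the set of serial numbers in the fit (limma adjusted p = 0.00593), a set formed with the values known. Its p was highest without CANA replicate 3 (1.12, limma adjusted p = 0.161).

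Target genes of PPAR-alpha and ATF4 formed the next lists, which like the others were chosen with earlier results of these data known. Of 24 tested PPAR-alpha targets 22 were above zero in CANA against HFD, beside 46.1% of all tested genes (medians 0.29 and -0.01). Of the 24, 1 passed, beside 0.165% of all tested genes: Cyp4a31, a fatty acid hydroxylase gene (2.15, SE 0.30, limma adjusted p = 0.0109). Cyp4a31 also passed in all 27 alternative settings and differed by 1.90 and 2.41 within the 2 sets of serial numbers. Cyp4a genes are near copies of each other, and signal from one may count for another. Cyp4a14 was at 3.51 (SE 0.89, limma adjusted p = 0.166), Pdk4, a kinase that blocks pyruvate oxidation, at 1.499 (limma adjusted p = 0.265) and Cpt1a, the entry enzyme of mitochondrial fat oxidation, at 0.29 (limma adjusted p = 0.572). Without CANA replicate 3 the Pdk4 difference was 0.83 (limma adjusted p = 0.316). In CR against HFD 14 of the 24 were above zero, beside 46.4% of all tested genes (medians 0.04 and -0.01), and none passed. Cyp4a31 was at 0.92 in CR against HFD (95% interval 0.33 to 1.52, limma adjusted p = 0.999), and at 0.76 and 1.17 within the 2 sets. Cyp4a14 was at 1.27 there (95% interval -0.53 to 3.07). Of 16 tested ATF4 targets 13 were above zero in CANA against HFD (median 0.09) and 13 in CR against HFD (median 0.06), with none passing in either. The shares of all tested genes above zero were 46.1% and 46.4%. Trib3 and Asns, ATF4 targets of stress and asparagine synthesis that the rule names, were at -0.04 and -0.07 in CANA against HFD and were 2 of the 3 below zero. Among those above zero, chosen after their values were seen, Ddit4, an inhibitor of mTORC1, was at 0.89 (limma adjusted p = 0.404). Ddit4 was at a like 0.82 in CR against HFD (95% interval 0.17 to 1.48, limma adjusted p = 0.999) and at 0.06 in CANA against CR. Cth, an enzyme of cysteine synthesis, was at 0.44 (limma adjusted p = 0.225) and Cebpb, a C/EBP factor, at 0.41 (limma adjusted p = 0.166). In both the CANA arrays lay wholly above the HFD arrays, as in 2.13% of all tested genes.

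The proteins around Angptl4 and Inhbe were taken from further lists. Of 10 tested genes of lipoprotein lipase and its regulators none passed in any comparison, beside at most 0.165% of all tested genes. In CANA against HFD 3 of the 10 were above zero, beside 46.1% of all tested genes. Angptl8, which joins related angiopoietin-like proteins in blocking the lipase after feeding, read 6.63 ± 0.27 in CANA, 7.93 ± 0.70 in HFD and 7.86 ± 0.34 in CR (SD, n = 4, 4 and 5). All CANA arrays lay below all arrays of both other groups, with differences of -1.30 against HFD (SE 0.27, limma adjusted p = 0.0643) and -1.23 against CR (SE 0.26, limma adjusted p = 0.0894). Of all tested genes 2.77% lay wholly lower in CANA than in HFD, and 1.51% than in CR. Angptl8 passed in 3 of 27 alternative settings against HFD and in 5 against CR, the looser limit of 0.10 included, and among them the fit with the replicate number as a block (-1.30, limma adjusted p = 0.0327, and -1.31, limma adjusted p = 0.0462). Its CANA minus HFD value was -0.77 within serial numbers 1 to 8 and -1.83 within 9 to 14. Lpl itself was at 0.18 (95% interval -0.40 to 0.76) in CANA against HFD. In the activin family none of 16 tested genes passed in any comparison, beside at most 0.165% of all tested genes. In CANA against HFD 7 of the 16 were above zero and 9 below, beside 46.1% of all tested genes above. Inhbc, the gene of activin C, was at -0.06 in CANA against HFD, Inhba at -0.50 (limma adjusted p = 0.308) and Fst, the gene of the activin-binding hormone follistatin, at 0.35 (limma adjusted p = 0.286). For Inhba the CANA arrays lay wholly below the HFD arrays, as in 2.77% of all tested genes.

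A further list was of liver-secreted hormones and related genes, not all of them hormones (Tfr2, for one, is a receptor gene). It shared Angptl8 and Fst with the lists above. Of its 20 tested genes 1 passed in CANA against HFD (0.165% of all tested genes) and none in CR against HFD (0%) or CANA against CR (0.150%). It was Igfbp1, whose product binds insulin-like growth factors and which insulin represses, at 11.23 ± 0.93 in CANA against 8.64 ± 0.27 in HFD (SD, n = 4 each) and 9.38 ± 0.95 in CR (SD, n = 5), which is 6.02-fold over HFD (limma adjusted p = 0.0383). The call was lost with the robust variance model (limma adjusted p = 0.111) and without any single HFD array or without CANA replicate 2, 3 or 4 (0.0508 to 0.123), while the difference stayed between 2.17 and 2.87. Igfbp1 stood 2.28 and 2.90 above HFD within serial numbers 1 to 8 and 9 to 14. In CR it stood 0.0870 and 1.73 above HFD within these sets. Rbp4, the retinol carrier, was at 0.05 (95% interval -0.14 to 0.24), Selenop, the selenium carrier, at -0.09 (95% interval -0.28 to 0.10) and Igf1 at -8.3e-04 (95% interval -0.23 to 0.23). The list split evenly, with 9 above and 11 below zero (46.1% of all tested genes were above) and a median of -0.02. Hrg, a cystatin-family gene beside the fetuins, was at 0.12. None of 5 tested genes of its list passed in any comparison, beside at most 0.165% of all tested genes.

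**Figure D4:**
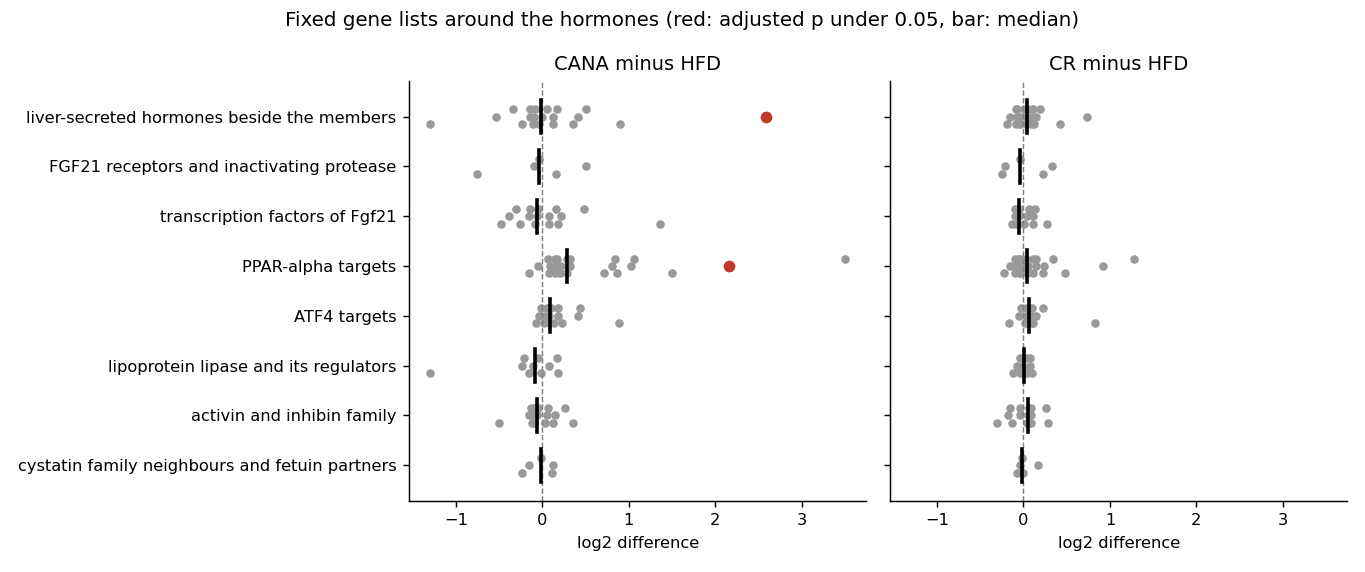
Log2 differences (horizontal axis) of the tested genes of 8 fixed lists (rows) for CANA minus HFD and CR minus HFD; each point is a gene, red points passed an adjusted p of 0.05 and black bars are list medians. Igfbp1 at 2.59 and Cyp4a31 at 2.15 are the red points, the PPAR-alpha target median is 0.29 on the left and 0.04 on the right, and no point is red on the right.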

How the data were processed

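The deposited log2 intensities were made by the authors with RMA (robust multi-array average) and Affymetrix Expression Console, per the submitters' processing notes, which give no versions. RMA subtracts background, makes the distributions of the arrays alike and summarises probes, which can narrow differences of very dim and very bright genes. Scanner files were not used here. The 41345 probe sets of 13 arrays took their names from GEO's platform annotation, with symbols updated through a RefSeq table (GRCm38.p6). Those naming several genes (1814) or no gene (16010) did not enter. Of 22180 genes, 13308 remained after dropping the dimmest by mean, up to the 40th percentile (3.95).

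All 13 arrays entered one fit with limma 3.58.1 in R 4.3.3 without covariates (residual degrees of freedom 10, prior 5.71). A gene passed at a Benjamini-Hochberg adjusted p under 0.05 over all tested genes, two-sided. Permutation tests of correlations used 100000 resamples within groups. The pipeline was tested on simulated data. Alternatives were other filters, normalizations, variance models, probe set rules, serial-number terms, a block for the replicate number, an exact permutation test and leaving out each array. Members and lists were chosen with earlier results of these data known. The names rule took all members, fixed genes of the lists, listed genes that passed, and the 5 genes nearest in profile to Fgf21, Inhbe and Angptl4. Not every gene under this rule is reported here. Array number limits the precision.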

Additional observations from a re-analysis of the deposited data

Results flagged for a closer look

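Lect2 in CR replicate 1 read 9.98, with the next CR array at 9.65 and the other 3 between 9.54 and 9.57, a gap of 0.749 of the group's range. It was 1 of 24 groups of arrays tested over the 8 members, where chance flags about 1 in 20.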

How the results depend on the processing

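None of the 8 members was called in any comparison. In CANA against HFD 1 was called at an adjusted p of 0.10 and with the serial number as a covariate, each time Fgf21. Fgf21 was also called there with the set of serial numbers as a covariate, a set formed with the values known. Leaving out each array in turn gave 0 to 1 there, and 0 in the other comparisons. At an unadjusted exact permutation p under 0.05 the counts were 2 in CANA against HFD, 3 in CANA against CR and 0 in CR against HFD. Fgf21 stayed above zero in CANA against HFD in all 27 settings (1.05 to 1.43, adjusted p from 0.0213 to 0.254) and in CANA against CR (0.85 to 1.23, adjusted p from 0.0526 to 0.405). Lect2 stayed below zero in both (-0.44 to -0.31 and -0.46 to -0.33). Their causes were not tested.

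Signs turned for small differences. Enho in CR against HFD went to 0.0092 with quantile normalization, 0.0083 with median centring, 4.0e-04 with array weights, 0.0305 with the replicate block and 0.0255 with the serial number, and ranged from -0.0719 to 0.11 when 1 array was left out. On leaving out 1 array, CR against HFD ranged from -0.0586 to 0.0612 for Lect2, -0.0269 to 0.11 for Angptl4, -0.0283 to 0.0918 for Fetub and -0.30 to 0.11 for Inhbe. Inhbe in CANA against HFD ranged from -0.0069 to 0.40 and Klb in CANA against CR from -0.0018 to 0.0837. Igf1 in CANA against HFD, at -8.3e-04, went to 0.0114 with quantile normalization, 0.0063 with median centring, 0.0063 with array weights and 0.0191 with the serial number, and ranged from -0.0610 to 0.0955 without 1 array. Further signs in CANA against HFD turned on leaving out 1 array, with ranges of -0.197 to 0.0721 for Fgfr2, -0.145 to 0.0139 for Ppara, -0.0527 to 0.170 for Creb3l3, -0.341 to 0.0649 for Asns, -0.0393 to 0.318 for Lpl and -0.118 to 0.0364 for Inhbc. The relation of Fgf21 with Ahsg turned to 0.26 within serial numbers 1 to 8, 0.14 without the 2 arrays farthest from the median and 0.0490 without centring. That with Fetub turned to -0.60 within 9 to 14 and -0.28 without those arrays, and that with Lect2 to 0.36 without them. Without centring on group means 2 of the 7 relations passed, with Angptl4 (r = 0.71, permutation adjusted p = 0.0468) and Lect2 (-0.65, permutation adjusted p = 0.0488), which then hold the group differences.

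The replicate numbers of the titles were taken as names only, since not every same-numbered pair correlated above 0.1: the range was -0.15 to 0.30, with 7 of 12 pairs over 0.1. In CANA against HFD, CR against HFD and CANA against CR 6, 2 and 6 of 8 arrays correlated best with their own number, a hint from the data and not from the design. With the replicate block 0 members were called in each comparison, and 29, 1 and 17 of all genes were called against 22, 0 and 20. Fgf21 then had a limma adjusted p of 0.0939 in CANA against HFD and a difference of 0.0369 in CR against HFD. CR replicate 5 has no array of its number in the other groups, so the block takes it out of the differences, and 0.0369 is also the value without it. Same numbers do not always share a set of serial numbers: CR replicate 3 had serial number 8, CANA replicate 3 had 9 and HFD replicate 3 had 10. The count of 22 was 12 without a filter, 14 and 39 with filters at the 20th and 60th percentile, 56 at an adjusted p of 0.10, 40 and 46 with the serial number and its set, and 3 to 38 without 1 array. The count of 20 was 34 at 0.10 and 7 to 23 without 1 array.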
